A study of Mus musculus with 11 samples.

Results

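The genes described here build and bind the basement membrane, the thin sheet of matrix on which an epithelium rests. They are 37 rows, of 24421 in a table of gene counts, chosen by symbol as the type IV collagens, the type XVIII collagen Col18a1, laminin chains, nidogens, the heparan sulfate proteoglycans Agrn and Hspg2, the dystroglycan gene Dag1, and integrin alpha and beta chains. The rule used no measured value, though the members were chosen with earlier results of these data known. All 37 symbols were found. RNA was measured by bulk sequencing of EpCAM-selected lung epithelial cells of fetal mice at E17.5, and the question of the series was how their expression differs when Prdm3 and Prdm16, a pair of related chromatin regulator genes, are removed. There were 6 Control libraries and 5 libraries labelled PRDM3/16KO. In the knockout, ShhCre recombined the floxed Prdm16 alleles and those of Prdm3, whose counts stand under Mecom. It is a Cre carried at the Shh gene and active in lung epithelium, which leaves the genes intact in cells that never expressed it. The parents were Prdm3 fl/fl Prdm16 fl/wt ShhCre+ males and Prdm3 fl/fl Prdm16 fl/fl females. The labels call the other group Control without listing its alleles or whether it carried ShhCre, and they leave unsaid if each library is its own animal or litter, so a p-value here weighs a difference only against the spread among these libraries, which may be technical.

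A basement membrane is made of networks that epithelial and mesenchymal cells secrete together. Laminins, each a trimer of 1 alpha, 1 beta and 1 gamma chain, assemble at the cell surface, where integrins and dystroglycan hold them, and type IV collagen trimers form the covalent network that gives the sheet its strength. Nidogens and the proteoglycans perlecan (Hspg2) and agrin (Agrn) tie these networks together. In the lung the alveolar and the endothelial basement membranes fuse where gas is exchanged, and type 1 alveolar cells are known as a source of the Col4a3 and Col4a4 chains and of agrin.

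Of the 37 genes, 35 had enough counts to be tested. By edgeR's quasi-likelihood test with adjustment over all 13916 genes tested, 8 were higher and 12 lower in the knockout at an adjusted p under 0.05. That is 22.9% higher, where the background over all genes was 21.1%, and 34.3% lower, where it was 21.8%. In either direction 57.1% of the tested members were called, against 42.9% of all genes. The median log2 fold change, knockout over Control, was -0.02 over the members and 0.0023 over all genes. The CPM (a gene's share of its library's counts, with library sizes adjusted by TMM) of the groups did not overlap for 11 members, 4 higher and 7 lower, or 31.4%, against 28.5% of all genes. The members thus moved in both directions, and 5 of those called changed more than 2-fold: Nid1, Lama1 and Lama2 were higher, Itga7 and Col18a1 lower. Among the 22 matrix genes tested, Dag1 included, 7 were higher, 6 lower and 9 not called, and among the 13 tested integrin chains 1 was higher, 6 lower and 6 not called, with median log2 fold changes of 0.01 and -0.19.

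**Figure D1:**
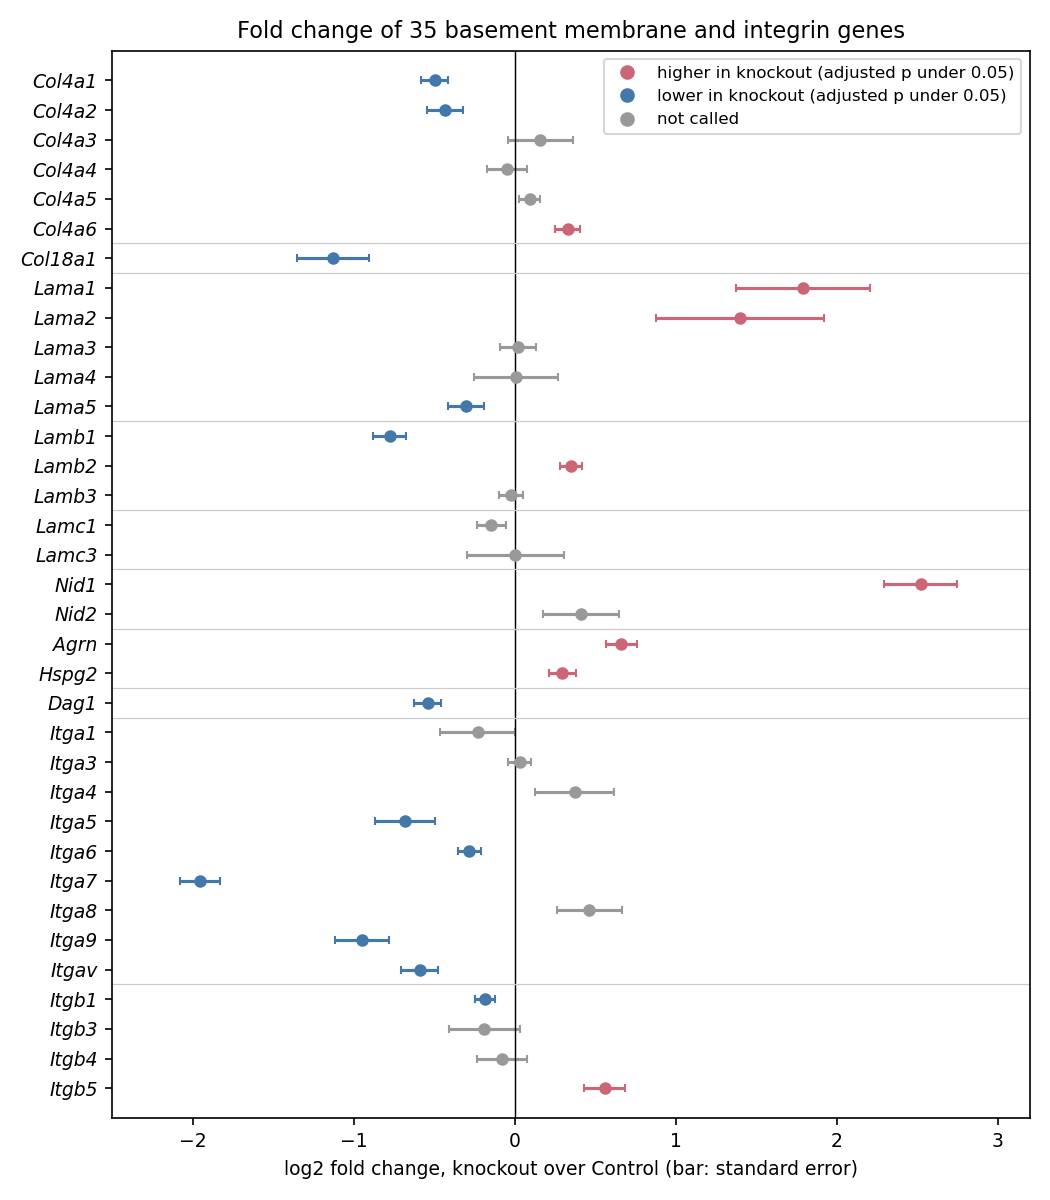
Log2 fold change, knockout over Control, of the 35 tested genes by edgeR, with the standard error as a bar and the groups of chains divided by grey lines. Nid1 lies farthest to the right at 2.52 and Itga7 farthest to the left at -1.95.

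Some facts of the series touch these values. Totals ran from 6065906 to 7869787 counts per library. Of the targeted genes, Prdm16 went from 202 ± 21.9 to 166 ± 12.2 CPM and Mecom from 219 ± 9.99 to 340 ± 16.0 CPM, Control first, as mean ± SD over 6 and 5 libraries as throughout. These counts cover whole genes and not the deleted exons, so they check the labels only weakly. Epithelial markers were high in both groups, with a summed level of 5417 to 6159 CPM over 7 markers in Control and of 5442 to 5927 CPM in the knockout, and 3 of the 7 (Cdh1, Nkx2-1 and Cldn7) were called lower. Markers of other cells were present and in part higher in the knockout. The sum over 14 mesenchymal markers was 543 to 956 CPM in Control and 840 to 1530 CPM in the knockout, with 6 of 13 tested higher and none at 0 in every library. For 7 mesothelial markers it was 160 to 302 and 455 to 576 CPM, all 7 higher, and for 9 endothelial markers 92.0 to 163 and 117 to 150 CPM, with 5 of 8 tested higher and 1, Kdr, lower; Emcn was at or near 0. Markers of alveolar type 1 cells summed to 5727 to 9426 and 8524 to 10317 CPM (3 of 9 higher, 1 lower), and those of type 2 cells to 5082 to 8513 and 1929 to 2882 CPM (7 of 7 lower). The part of these cell types in the values below was not tested. In bulk samples, a change in the number of cells of a type and a change in RNA per cell cannot be told apart. Y-linked transcripts were high in 4 Control and in 1 knockout library, and Control libraries 5 and 6 had the highest sums of proliferation markers, 555 and 785 CPM, where the other Control libraries had 197 to 363 CPM. Scaled by library size without TMM, all genes together had a median of 0.11 on the log2 scale, and 65.6% of calls were higher, against 49.2% with TMM. Values below are relative to the TMM scale.

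Stretches of DNA before the start site are shown for 4 members that changed without overlap, the laminin and collagen linker Nid1, the agrin gene Agrn and the beta chains Lamb2 and Lamb1 that moved apart. The sequences are RefSeq's (GRCm38.p6, the assembly of mm10), and bases inside any annotated exon were left off. They are printed from 5′ to 3′ on the strand of the gene. Nid1 is chr13:13437352-13437550 (plus), Agrn chr4:156197534-156197738 (minus), Lamb2 chr9:108479612-108479735 (plus) and Lamb1 chr12:31265043-31265145 (plus). Capitals mark matches on either strand to any of 6 motifs, and matches may overlap each other. They are the CCAAT box, the GC box as GGGCGG, the TATA box as TATAAA, the AP-1 site as TGANTCA, an NKX2-1 core as CAAGTG and, last, a TEAD core as GGAATG.
Nid1: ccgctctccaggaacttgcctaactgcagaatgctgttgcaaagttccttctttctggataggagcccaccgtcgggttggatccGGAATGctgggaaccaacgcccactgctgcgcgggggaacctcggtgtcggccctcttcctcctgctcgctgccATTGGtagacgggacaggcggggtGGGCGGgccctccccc
Agrn: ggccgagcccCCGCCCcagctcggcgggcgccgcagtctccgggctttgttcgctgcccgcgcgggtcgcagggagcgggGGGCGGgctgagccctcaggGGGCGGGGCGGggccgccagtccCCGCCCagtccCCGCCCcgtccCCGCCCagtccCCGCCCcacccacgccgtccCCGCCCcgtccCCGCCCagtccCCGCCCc
Lamb2: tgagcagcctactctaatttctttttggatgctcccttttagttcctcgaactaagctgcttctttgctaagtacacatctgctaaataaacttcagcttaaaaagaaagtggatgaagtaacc
Lamb1: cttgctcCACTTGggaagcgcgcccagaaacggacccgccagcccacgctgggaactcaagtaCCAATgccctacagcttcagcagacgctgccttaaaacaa
The stretch of Agrn held 11 matches to GGGCGG, a motif found at least once in 25.6% of 32851 windows of the same length. That of Nid1 held 1 match each to CCAAT (28.2% of windows), GGGCGG (24.4%) and GGAATG (10.6%). Lamb1 had 1 match to CCAAT (13.9%) and 1 to CAAGTG (5.33%), and Lamb2 had no match in its 124 bases. TATAAA and TGANTCA were found in none of the 4 stretches. Those of Agrn and Lamb1 stop at 156197534 and 31265145, short of the gene starts at 156197488 and 31265234. Matches in the bases between were not looked for. A match is a description of letters, and nothing was measured at these sites.

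The largest change was in Nid1, which encodes nidogen-1, a linker between laminin and type IV collagen. In Control its level was 27.7 CPM in the lowest library, 40.6 CPM at the median and 87.8 CPM in the highest. In the knockout libraries it was 291, 253, 287, 241 and 290 CPM. All 5 knockout libraries stood above all 6 Control libraries, and Control library 6 was the highest Control. The mean rose from 47.0 ± 21.2 (SD, n = 6) to 272 ± 23.5 CPM (SD, n = 5), 5.74-fold, or 2.52 on the log2 scale (SE 0.227; edgeR, adjusted p = 1.31e-06). The gene lies on chromosome 13 from 13437551 to 13512269 (mm10, plus strand). Nid1 was called in each of the 23 other settings tried, with log2 fold changes from 2.10 to 2.91; the lowest was with the mesenchymal marker level as a covariate. The summed mesenchymal markers of the groups overlapped and the mesothelial ones did not. Most of the mesothelial sum was Msln, at 208 ± 55.1 CPM in Control and 430 ± 59.0 CPM in the knockout. Taken singly, Msln, Upk1b and Aldh1a2 did not overlap between groups, and Wt1, Upk3b, Lrrn4 and Gpm6a did. Control library 6, the highest Control for Nid1, had the highest mesenchymal sum of the Control libraries, 956 CPM, and a mesothelial sum of 176 CPM, near the low end. The part of mesenchymal cells in this result was not tested beyond that covariate, and that of mesothelial cells cannot be told apart from the genotype. The related Nid2 was low, at 6.66 ± 2.53 and 9.0 ± 2.25 CPM, and was not called (log2 fold change 0.41; edgeR, adjusted p = 0.18). Without Control library 6 it was called (0.63; edgeR, adjusted p = 0.0175).

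**Figure D2:**
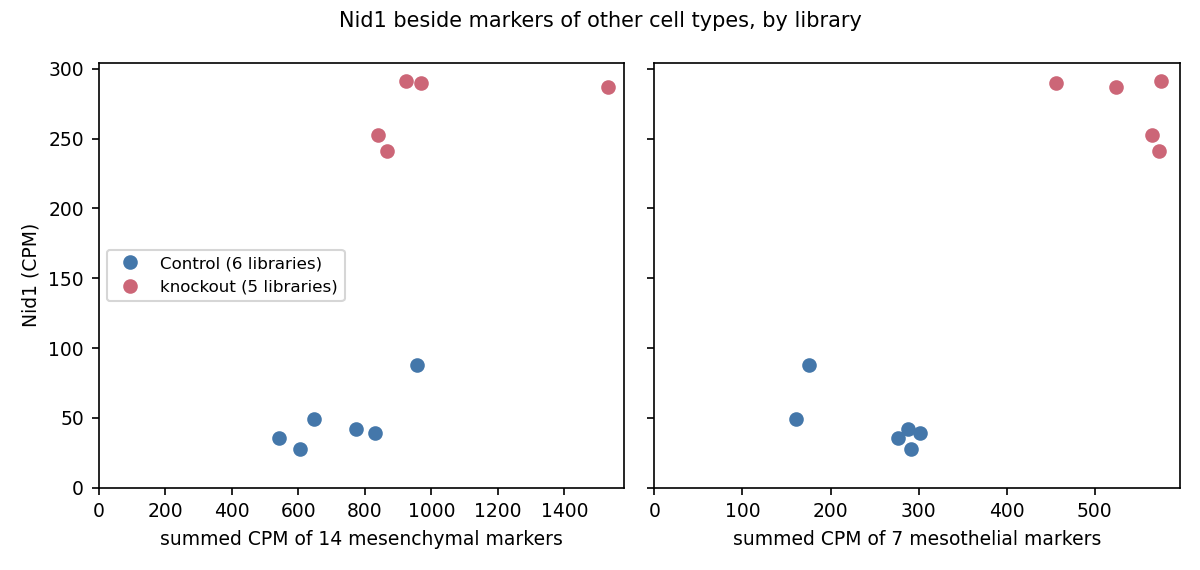
Nid1 in CPM (vertical axis) against the summed CPM of 14 mesenchymal (left) and 7 mesothelial markers (right), 1 point per library. Control and knockout libraries overlap along the mesenchymal axis, at 543 to 956 and 840 to 1530 CPM, and are apart along the mesothelial axis and in Nid1.

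The proteoglycan genes Agrn and Hspg2 were both higher, while Col18a1, whose protein also carries heparan sulfate, was lower (described below). Agrin, from Agrn, gathers receptors and dystroglycan at basement membranes. It had 763, 974 and 1129 CPM in the lowest, median and highest Control library, and 1530, 1720, 1342, 1635 and 1414 CPM in the knockout libraries. No Control library reached the lowest knockout library. The mean rose from 965 ± 120 to 1528 ± 155 CPM, 1.58-fold (log2 fold change 0.66, SE 0.0971; edgeR, adjusted p = 5.17e-05; chromosome 4, 156165290 to 156197488, minus strand), and the call held in all 23 other settings. Hspg2, which encodes perlecan, rose from 326 ± 36.8 to 401 ± 37.4 CPM (0.30; edgeR, adjusted p = 0.0109). Its ranges overlapped, since Control library 1 at 398 CPM was above 2 knockout libraries. The call was lost with the mesenchymal (0.32, adjusted p = 0.0653 by edgeR) and the endothelial covariate (0.18, adjusted p = 0.257 by edgeR). With the mesenchymal covariate the log2 fold change itself did not shrink.

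Laminin beta chains moved apart. Lamb1, the beta chain typical of early and embryonic laminins, was at 136, 202 and 216 CPM in the lowest, median and highest Control library and at 102, 111, 121, 113 and 114 CPM in the knockout. Lamb2, the beta chain typical of mature basement membranes, was at 202, 227 and 252 CPM in Control and at 280, 307, 268, 316 and 273 CPM in the knockout. For each of these genes every knockout library lay on 1 side of every Control library. Lamb1 fell 1.71-fold, from 192 ± 29.0 to 112 ± 6.96 CPM (log2 fold change -0.78, SE 0.10; edgeR, adjusted p = 1.52e-05; chromosome 12, 31265234 to 31329644). Lamb2 rose 1.28-fold, from 226 ± 17.2 to 289 ± 21.3 CPM (0.35, SE 0.0693; edgeR, adjusted p = 0.00077; chromosome 9, 108479736 to 108490530), and was not called with the endothelial covariate (0.22; edgeR, adjusted p = 0.0791). Lamb3, which pairs with Lama3 in the laminin that anchors epithelia, was at 314 ± 23.1 and 309 ± 27.7 CPM and was not called (-0.02; edgeR, adjusted p = 0.841). Per kilobase of exon, Lamb1 made up 14.5% to 20.4% of the 3 beta chains in Control libraries and 9.81% to 12.2% in knockout libraries. The share of Lamb2 went from 35% to 37.1% in Control to between 44.0% and 46.1% in the knockout. The share of Lamb3 overlapped, at 43.9% to 50.6% and 42.1% to 46.2%. These shares describe the libraries and were not tested.

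**Figure D3:**
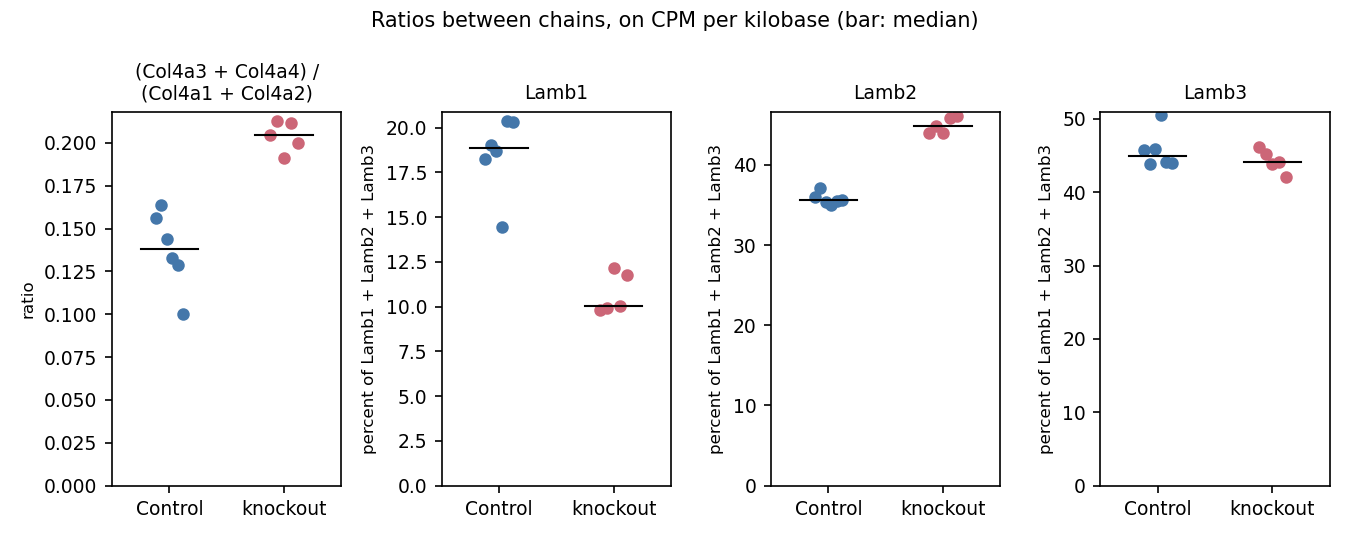
Ratios computed on CPM per kilobase of exon, 1 point per library (6 Control, 5 knockout), with the median as a bar and the axes starting at 0. The 2 groups do not overlap for the collagen ratio (0.10 to 0.164 and 0.191 to 0.213), for the Lamb1 share or for the Lamb2 share, and overlap for Lamb3.

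Among laminin alpha chains, those of the epithelium were called lower by a small amount (Lama5) or not called (Lama3). Lama5, the main alpha chain of the alveolar epithelium, had 806 ± 142 and 654 ± 50.2 CPM and was called lower (log2 fold change -0.30; edgeR, adjusted p = 0.0378). The ranges overlapped, at 611 to 1043 and 603 to 726 CPM, and the call was lost without any 1 of 7 libraries (Control 1, 2 or 3, knockout 1, 2, 3 or 5), with adjusted p up to 0.0911 by edgeR. Lama3 had 251 ± 44.2 and 254 ± 22.2 CPM (0.02; edgeR, adjusted p = 0.905). The share of Lama3 among the alpha chains per kilobase was 23.7% to 25.1% in Control and 28.0% to 29.6% in the knockout, with no overlap. That of Lama5 was 73.4% to 75.6% in Control and 69.3% to 70.2% in the knockout, also with no overlap. The share of Lama3 thus rose while its own level was not called. Lama4, typical of endothelium and mesenchyme, was at 10.1 ± 3.57 and 10.3 ± 3.78 CPM (0.01; edgeR, adjusted p = 0.983), and was called lower with the mesenchymal marker level as a covariate (-0.77; edgeR, adjusted p = 0.00764).

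Lama1 and Lama2, alpha chains of early embryonic and of muscle and mesenchymal basement membranes, were called higher from very few counts. Lama1 had 20 counts over the 6 Control libraries, of which library 1 had none, and 68 over the knockout. Its level was 0, 0.446 and 1.11 CPM in the lowest, median and highest Control library and 1.59, 1.71, 1.41, 1.54 and 2.47 CPM in the knockout (log2 fold change 1.79, SE 0.415; edgeR, adjusted p = 0.00229), and was not called with the mesenchymal covariate (1.53; edgeR, adjusted p = 0.0528). Lama2 had 37 and 94 counts and overlapping ranges (1.40, SE 0.524; edgeR, adjusted p = 0.0418), and this call was lost when any 1 of 9 libraries was left out (all except Control 6, without which it was too low to test, and knockout 2). The gamma chain Lamc1, shared by most laminins, was the most abundant laminin, at 1336 ± 159 and 1209 ± 64.9 CPM, and was not called (-0.14; edgeR, adjusted p = 0.21). Control library 4 was its lowest, at 1032 CPM, and without it Lamc1 was called lower (-0.21; edgeR, adjusted p = 0.0172). Lamc3 was low, at 1.67 ± 0.308 and 1.67 ± 0.745 CPM (0.0056; edgeR, adjusted p = 0.991).

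The type IV collagens are encoded in pairs. Their genes lie head to head: the start sites of Col4a1 and Col4a2 overlap by 22 bases on chromosome 8, those of Col4a4 and Col4a3 lie 71 bases apart on chromosome 1, and those of Col4a6 and Col4a5 lie 1308 bases apart on chromosome X. Col4a1 and Col4a2, whose chains form the network of nearly every basement membrane, were both lower. Col4a1 was at 706, 865 and 927 CPM in the lowest, median and highest Control library and at 620, 611, 601, 574 and 532 CPM in the knockout. Col4a2 was at 527, 693 and 816 CPM in Control and at 524, 513, 504, 509 and 441 CPM in the knockout. Neither gene overlapped between groups, although for Col4a2 the gap between Control library 5 (527 CPM) and knockout library 1 (524 CPM) was small. The fall was 1.41-fold for Col4a1 (log2 fold change -0.50, SE 0.0864; edgeR, adjusted p = 0.000259; chromosome 8, 11198423 to 11312826) and 1.35-fold for Col4a2 (-0.43, SE 0.112; edgeR, adjusted p = 0.00593; 11312805 to 11449287). Col4a2 lost its call with the mesenchymal covariate (-0.35; edgeR, adjusted p = 0.12) and within the libraries with low Y-linked transcripts (-0.28; edgeR, adjusted p = 0.102). Per kilobase, Col4a2 stood at 0.842 to 1.02 times Col4a1 in Control and at 0.934 to 1.00 times in the knockout, so the balance within the pair overlapped.

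Col4a3 and Col4a4, the chains that with Col4a5 build the stronger network of the alveolus and kidney glomerulus, were not called. Col4a3 had 97.2, 220 and 241 CPM in the lowest, median and highest Control library and 226, 230, 210, 218 and 184 CPM in the knockout (log2 fold change 0.16; edgeR, adjusted p = 0.561). Control libraries 5 and 6, at 134 and 97.2 CPM, stood below the other 9, which ran from 184 to 241 CPM. Without these 2 libraries the value was -0.11 (edgeR, adjusted p = 0.239). Control libraries 5 and 6 also had the lowest sums of type 1 cell markers, 6511 and 5727 CPM, where the other 9 had 8186 to 10317 CPM. The part of type 1 cells in the values of Col4a3 and of the ratio below was not tested. Col4a4 had 110 ± 22.7 and 106 ± 9.39 CPM (-0.05; edgeR, adjusted p = 0.783). The ratio of Col4a3 and Col4a4 to Col4a1 and Col4a2 per kilobase was 0.10 to 0.164 in Control and 0.191 to 0.213 in the knockout. The mean difference of this ratio was 0.59 on the log2 scale, and 0.46 without Control libraries 5 and 6. Col4a5 had 143 ± 11.1 and 153 ± 9.27 CPM and was not called (0.09; edgeR, adjusted p = 0.276). Col4a6, which pairs with Col4a5 in basement membranes around airways and smooth muscle, was higher, from 53.7 ± 5.47 to 67.7 ± 5.10 CPM (0.33; edgeR, adjusted p = 0.00323), with Control library 6 (62.4 CPM) above knockout library 3 (59.7 CPM), and was not called within the libraries with low Y-linked transcripts (0.20; edgeR, adjusted p = 0.193).

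Col18a1, whose protein carries heparan sulfate and releases endostatin, was lower. It had 263, 376 and 736 CPM in the lowest, median and highest Control library and 190, 200, 197, 188 and 216 CPM in the knockout. The Control libraries were spread, with libraries 5 (523 CPM) and 6 (736 CPM) highest, while the knockout libraries lay close together and below all of them. The mean fell from 432 ± 175 to 198 ± 11.4 CPM (log2 fold change -1.13, SE 0.223; edgeR, adjusted p = 0.00116; chromosome 10, 77052178 to 77166548). Without Control libraries 5 and 6 the log2 fold change was -0.75 (edgeR, adjusted p = 6.36e-05), and with the endothelial covariate the call was lost (-0.79; edgeR, adjusted p = 0.0775).

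Of the receptors, Dag1 was the most abundant member per length. It encodes dystroglycan, which binds laminin, perlecan and agrin through sugars on its outer chain. Control libraries had 2067, 2399 and 2726 CPM at the lowest, median and highest, and knockout libraries 1593, 1809, 1596, 1689 and 1561 CPM. The groups did not overlap, and the mean fell 1.45-fold, from 2396 ± 249 to 1650 ± 101 CPM (log2 fold change -0.54, SE 0.0845; edgeR, adjusted p = 9.98e-05; chromosome 9, 108204634 to 108263958). Its ligand Agrn thus rose while Dag1 fell. Of 9 genes in the table for the enzymes that build the laminin-binding sugar, 4 were higher and 1 lower. Over all genes tested, 21.1% were higher and 21.8% lower. B3galnt2 (0.52), Pomgnt2 (0.89) and Pomt1 (0.48) rose, Pomgnt1 (-0.33) fell, and B4gat1 (0.03) was not called.

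**Figure D4:**
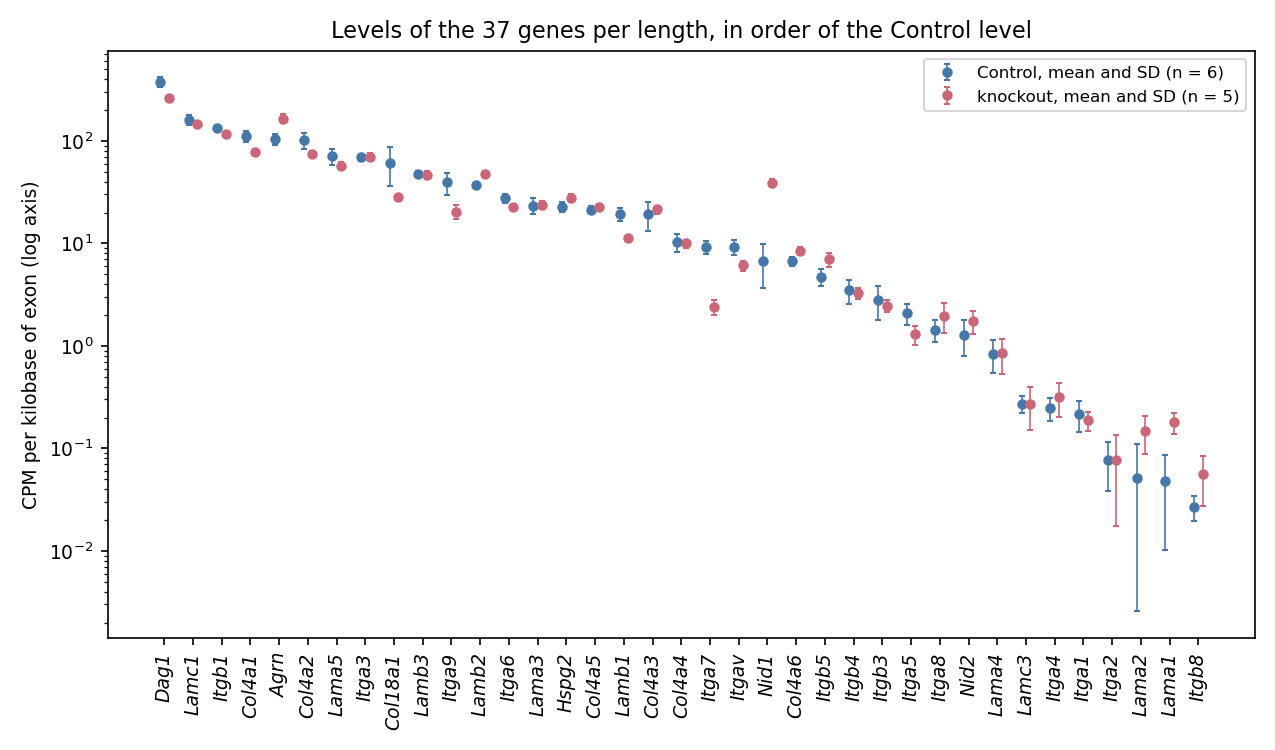
CPM per kilobase of exon of all 37 genes on a log axis, in order of the Control mean, with the SD over 6 Control and 5 knockout libraries (the lower Control bar of Lama2, which would pass 0, is shortened). Dag1 is highest at 377 in Control, and Nid1 moves from 6.76 to 39.2.

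Integrins are pairs of 1 alpha and 1 beta chain. For chains that bind laminin with Itgb1 or Itgb4, the values differed from gene to gene. Itga7, known best from muscle, had 64.3, 71.8 and 93.8 CPM in the lowest, median and highest Control library and 19.4, 14.3, 23.1, 20.2 and 19.5 CPM in the knockout. All 5 knockout libraries lay far below the lowest Control library. The mean fell 3.87-fold, from 74.9 ± 11.3 to 19.3 ± 3.15 CPM (log2 fold change -1.95, SE 0.124; edgeR, adjusted p = 1.01e-08; chromosome 10, 128933818 to 128958282), and in the 23 other settings the value stayed between -2.07 and -1.84 with every call kept. Itga6, which with Itgb4 forms the hemidesmosome integrin, fell slightly, from 248 ± 23.2 to 204 ± 7.30 CPM (-0.28; edgeR, adjusted p = 0.00413), with overlapping ranges and no call with the mesenchymal covariate (-0.20; edgeR, adjusted p = 0.145). Itga3, the most abundant alpha chain per length and the main laminin receptor of lung epithelium, was at 394 ± 28.5 and 402 ± 35 CPM (0.03; edgeR, adjusted p = 0.769). Itgb4 was at 24.4 ± 6.54 and 23.0 ± 2.99 CPM (-0.08; edgeR, adjusted p = 0.718).

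Itga9, whose integrin binds tenascin-C, EIIIA fibronectin and other ligands, was lower. Control libraries had 194, 306 and 386 CPM at the lowest, median and highest and knockout libraries 152, 124, 173, 185 and 150 CPM, without overlap. The mean fell 1.93-fold, from 303 ± 75.3 to 157 ± 23.4 CPM (log2 fold change -0.95, SE 0.167; edgeR, adjusted p = 0.000457; chromosome 9, 118606690 to 118901003), a call kept in the 23 other settings. Control libraries 5 and 6, at 244 and 194 CPM, were the lowest of their group, and without them the value was -1.13. Itgav, the alpha chain of the integrins that bind RGD sequences and activate latent TGF-beta, fell from 98.8 ± 16.3 to 65.5 ± 7.14 CPM (-0.59; edgeR, adjusted p = 0.000692). Its ranges overlapped through Control library 6 (72.2 CPM) and knockout library 1 (76.4 CPM), and within the libraries with low Y-linked transcripts it was not called (-0.44; edgeR, adjusted p = 0.0756). Itga5, the fibronectin receptor chain, was low and fell from 10.3 ± 2.36 to 6.40 ± 1.36 CPM (-0.68; edgeR, adjusted p = 0.00778), with overlapping ranges. It was not called with the mesenchymal (-0.67, adjusted p = 0.0716 by edgeR) or the endothelial covariate (-0.65, adjusted p = 0.0981 by edgeR).

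The 5 beta chains among the members are Itgb1, Itgb3, Itgb4, Itgb5 and Itgb8, and other beta chains were left out of the shares. Itgb1, the chain common to most of these receptors, made up 91.3% to 93.3% of these 5 per kilobase in Control. In the knockout Itgb1 made up 88.1% to 91.4%. It was called lower by a small amount, from 543 ± 26.9 to 478 ± 16.6 CPM with overlapping ranges (log2 fold change -0.18; edgeR, adjusted p = 0.0225), but not with the mesenchymal covariate (-0.11; edgeR, adjusted p = 0.37), when TMM was left out (-0.08; edgeR, adjusted p = 0.243), nor without knockout library 3 (adjusted p = 0.0638) or 5 (adjusted p = 0.0545; both edgeR). Itgb5, a partner of Itgav, was the only integrin chain among the members called higher, with a mean of 16.7 ± 3.05 in Control and 24.8 ± 3.83 CPM in the knockout (0.56; edgeR, adjusted p = 0.00248). Control library 6, at 22.7 CPM, lay within the knockout range of 21.8 to 31.2 CPM. With the mesenchymal covariate Itgb5 was not called (0.25; edgeR, adjusted p = 0.191). Itgb3 had 16.7 ± 6.1 and 14.5 ± 1.90 CPM (-0.19; edgeR, adjusted p = 0.528). It was lowest in Control libraries 5 and 6, and without these 2 it was called lower (-0.45; edgeR, adjusted p = 0.0227).

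The remaining alpha chains were low. Itga8, a mesenchymal chain that binds nephronectin, had 10.6 ± 2.48 and 14.5 ± 4.66 CPM (log2 fold change 0.46; edgeR, adjusted p = 0.0764), highest in knockout library 3 (22.4 CPM), the library with the highest mesenchymal marker sum. With that marker level as a covariate the value was -0.08 (edgeR, adjusted p = 0.783). Without Control library 6 (0.54; edgeR, adjusted p = 0.0452) or knockout library 2 (0.58; edgeR, adjusted p = 0.0361) Itga8 was called higher. Itga1, a collagen receptor chain (-0.23; edgeR, adjusted p = 0.46), and Itga4, which binds VCAM1 (0.37; edgeR, adjusted p = 0.237), reached at most 5.86 and 7.23 CPM in any library. Itga2 had 22 counts over the Control and 21 over the knockout libraries, and Itgb8 12 and 24, too few to be tested.

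**Figure D5:**
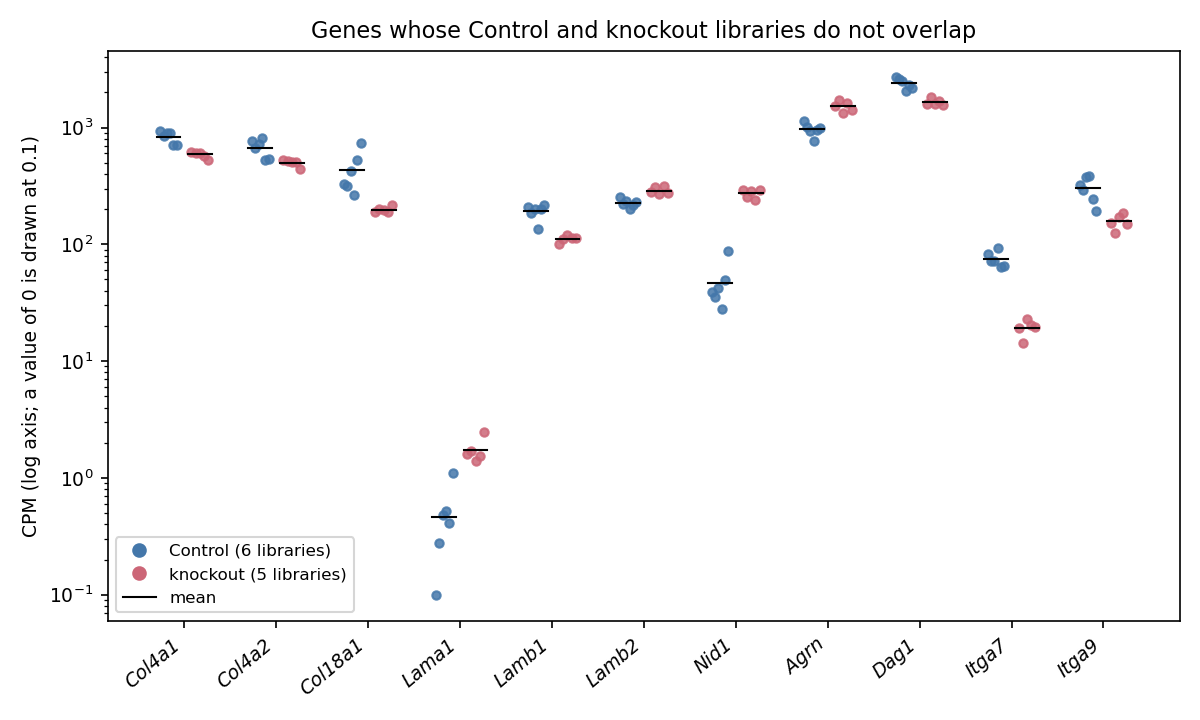
CPM in every library (log axis) for the 11 genes whose groups do not overlap, with Control libraries in blue, knockout libraries in red and the mean as a bar. Nid1, Agrn, Lamb2 and Lama1 are higher and the other 7 lower in the knockout.

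Other genes of the same pathway were read from lists of related genes, by the same edgeR test. Values in brackets are log2 fold changes. Over all genes tested, 21.1% were higher and 21.8% lower, the background for the counts of each list here and below. No list was tested as a set. Of 24 tested genes for other basement membrane components, 11 were higher and 6 lower, with a median log2 fold change of 0.43. Tinagl1, a matrix protein that binds laminin and integrins, rose from 315 ± 54.8 to 935 ± 107 CPM (1.57; edgeR, adjusted p = 5.35e-08), and Ntn1, a laminin-related guidance protein, rose from 38.6 ± 5.02 to 103 ± 5.80 CPM (1.41). Tinag, the relative of Tinagl1, fell from 94.6 ± 4.55 to 4.60 ± 1.27 CPM (-4.36; edgeR, adjusted p = 3.3e-12), and Egfl6, a secreted integrin-binding protein, from 435 ± 30.9 to 79.7 ± 6.84 CPM (-2.45). Pxdn, the peroxidase that crosslinks type IV collagen (0.07), and Frem1 (-0.13) were not called. In collagen modification and folding, 7 of 20 tested genes were higher and 3 lower. The prolyl hydroxylase chains P4ha2 (-1.33) and P4ha1 (-1.07) fell, P3h1 (0.75) and Colgalt1 (0.32) rose, and P4hb (-0.0044) and Lox (0.09) were not called.

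Genes for matrix proteases and their inhibitors were higher in 5 and lower in 8 of 19 tested cases. The proteases Adamts9 (log2 fold change -1.10), Adamts1 (-1.16) and Mmp15 (-0.72) fell, the inhibitor Timp4 rose from 0.615 ± 0.186 to 3.45 ± 0.928 CPM, and Timp3 (-0.0048) and Mmp14 (-0.09) were not called. Among hemidesmosome genes and other matrix receptors, 4 of 16 were higher and 4 lower. The syndecans Sdc4, from 1372 ± 220 to 471 ± 20.3 CPM (-1.54; edgeR, adjusted p = 1.48e-08), and Sdc1 (-0.74) fell, as did the dystroglycan partner Sgcb (-0.78), while the glypican Gpc4 (1.18) rose. Bcam, a receptor for Lama5 (0.06), and the hemidesmosome linker Plec (0.20) were not called.

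Inside the cell, 4 of 26 integrin adaptor genes were higher and 13 lower, with a median log2 fold change of -0.23. Parvb, a parvin that joins integrin-linked kinase to actin, rose from 7.31 ± 0.831 to 51.7 ± 10.9 CPM (2.82; edgeR, adjusted p = 4.77e-10), and the talin Tln2 (1.35) rose with it. Actn1 (-0.64) and Tns2 (-0.63) fell, and Tns1 (0.05) and Parva (0.11), the parvin with the higher count level in both groups, were not called. Of 11 interstitial ligands and latent TGF-beta genes, 2 were higher and 4 lower. Tgfb3 fell from 115 ± 14.6 to 35.7 ± 6.01 CPM (-1.69; edgeR, adjusted p = 2.34e-08), with Ltbp1 (-0.89), Tgfb2 (-0.51) and Fbn2 (-0.68), while Thbs1 (-0.22) and Fbn1 (0.26) were not called. Of 7 other integrin chains tested, 3 were higher, the leukocyte chains Itgam (2.29) and Itgal (0.90) and the platelet chain Itga2b (0.37), each at 7.03 CPM or less on average. Leukocyte markers had a sum of 14.9 to 35 CPM in Control and 31.0 to 72.8 CPM in the knockout (3 of 4 tested higher; Itgam is in both lists), and their part in these values was not tested. Itgb2l (0.15) and Itga11 (-0.09) were not called.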

How the data were processed

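Bulk RNA-seq of 11 libraries of EpCAM-selected fetal mouse lung cells at E17.5 was read from a deposited table of raw gene counts, with whole numbers per gene and library as the authors counted them. Per the submitters' processing notes, HTSeq 2.0, Bowtie2 2.4.2 and the build mm10 were used, besides Trim Galore 0.4.2 and FastQC, Picard 2.18.22, SAMtools 1.10.0 and DESeq2, each without a stated role. Which annotation and strand setting were used, and how duplicates were treated, is not given in the sources used here, so reads of genes that overlap on opposite strands may not be separable. Bowtie2 does not align across introns, and if it was the aligner, reads over exon junctions would be lost. Bases of exon on the opposite strand made up 8.45% of Nid2, 8.04% of Itga4 and 7.66% of Itgb4, and less of the other members.

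The members and gene lists were chosen with earlier results of these data known. The genes named are all members, the targeted genes with Epcam, and from each wider list at most the 4 called genes of lowest adjusted p and the 2 uncalled genes of highest level, of which 1 is not reported here. Counts were filtered with filterByExpr, scaled by TMM and tested with edgeR 4.0.16 (glmQLFit and glmQLFTest, R 4.3.3) over all 11 libraries, knockout against Control, with Benjamini-Hochberg adjustment over 13916 genes and a threshold of 0.05. A positive log2 fold change means higher in the knockout, and SD is over libraries. CPM per kilobase used merged exons of GENCODE M21 (mm10). RefSeq's promoter table held windows for 26 of the 37 members. The test was checked on simulated counts. Alternatives used limma 3.58.1 (voom), DESeq2 1.42.0, other scalings and filters, a replicate block, marker covariates, splits by Y-linked transcripts, and fits without single libraries or without Control libraries 5 and 6.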

Additional observations from a re-analysis of the deposited data

Results flagged for a closer look

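In each group of each member the highest and the lowest library were set against the rest by Dixon's test, which chance alone passes in about 1 of 20 groups. Of 74 groups, 7 held a library that stood apart. In the knockout, library 5 was lowest for Col4a2, at 441 CPM with the nearest library at 504 CPM, and highest for Lama1, at 2.47 CPM with the nearest at 1.71 CPM. In Control, library 4 was lowest for Lamb1, at 136 CPM with the nearest at 186 CPM, and for Lamc1, at 1032 CPM with the nearest at 1352 CPM. Control library 6 was highest for Nid1, at 87.8 CPM with the nearest at 49.4 CPM, and for Itgb5, at 22.7 CPM with the nearest at 16.9 CPM. Control library 1 was highest for Hspg2, at 398 CPM with the nearest at 327 CPM.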

How the results depend on the processing

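Of the 20 called members, 4 (Agrn, Itga7, Itga9 and Nid1) kept their call in each of 23 alternative settings, and 16 lost it in at least 1, while none changed direction. Leaving out 1 library ended the call of Lama2, Lama5 and Itgb1. Leaving out single libraries gave 2644 to 3120 genes higher and 2620 to 3269 lower, with 7 to 9 members higher and 10 to 13 lower, against 2936, 3037, 8 and 12 by the test as reported. With a mesenchymal marker covariate 1862 genes were higher and 1920 lower, and 4 members higher and 8 lower. With an endothelial covariate 2079 genes were higher and 2376 lower, and 4 members higher and 10 lower. Both covariates differed between groups with only partial overlap. As a mean of log2 marker CPM, mesenchyme was 3.82 to 4.66 in Control and 4.51 to 5.26 in the knockout. Endothelium was 2.43 to 2.88 and 2.78 to 3.22. Each covariate thus shares variation with the genotype, and a call can be lost through a less precise value without a smaller one. In libraries with low Y-linked transcripts 1932 genes were higher and 1821 lower, and 4 members higher and 8 lower. In those with high ones, 4 Control and 1 knockout, where the lone sample is assumed to vary like the others, 869 genes were higher and 933 lower, and 2 members higher and 3 lower. These splits hold fewer libraries. Lama2 could not be tested without Control library 6, since it was too low to pass the filter.

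The numbers in the labels gave little sign of pairing the libraries. Deviations of same-numbered libraries correlated by -0.06, 0.097, -0.05, 0.0079 and 0.27, and 1 of 5 numbers matched best with itself. So few values cannot settle whether libraries were paired. With the replicate block, 3079 genes were higher and 3118 lower. Among members Itga8 (0.52, adjusted p = 0.0177 by edgeR) and Nid2 (0.64, adjusted p = 0.00606 by edgeR) were gained and Lama5 (-0.30, adjusted p = 0.051 by edgeR) was lost.

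Log2 fold changes changed sign for 12 of the 15 members not called, and the cause was not tested. With the mesenchymal covariate they were 0.11 for Col4a4, -0.085 for Itga8, -0.77 for Lama4, -0.33 for Lamc3 and -0.022 for Nid2. With the endothelial covariate they were -0.17 for Col4a3, -0.068 for Itga3, -0.00099 for Itga4, 0.22 for Itgb4, -0.19 for Lama3, -0.061 for Lama4 and -0.43 for Lamc3. Without Control libraries 5 and 6 they were -0.11 for Col4a3, -0.0065 for Itga3 and -1.5e-05 for Lama3. With library-size scaling they were 0.064 for Col4a4, 0.027 for Itgb4 and 0.085 for Lamb3. In libraries with low Y-linked transcripts they were 0.071 for Itgb3, 0.22 for Itgb4, -0.10 for Lama4, 0.018 for Lamb3 and -0.11 for Lamc3, and in those with high ones -0.030 for Itga4, -0.16 for Lama4 and 0.033 for Lamb3. For Lamc3 voom gave -0.11 and the replicate block -0.0025. Without single libraries the range was -0.12 to 0.031 for Col4a4, -0.15 to 0.058 for Itgb4, -0.059 to 0.10 for Lama3, -0.23 to 0.19 for Lama4, -0.048 to 0.023 for Lamb3 and -0.20 to 0.22 for Lamc3. Depth limits Lama1, Lama2, Lamc3, Itga2 and Itgb8 most, with under 100 counts in each group.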
